A study of Mus musculus and Rattus norvegicus with 60 samples.

Results

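Neutrophils are the granulocytes of the blood, and they carry ready-made antimicrobial proteins in granules that form in a fixed order while the cells mature in the bone marrow. Transcripts for azurophil granules (Mpo, Elane, Prtn3) appear first, in promyelocytes, and those for specific granules (Ltf, Camp, Ngp and, with them, Mmp8) follow in myelocytes. S100a8 and S100a9, the subunits of the calcium-binding heterodimer calprotectin, fill the cytosol of mature neutrophils and are also made by monocytes. Growth plate cartilage has no blood vessels, but its hypertrophic end borders the vessels and marrow of the metaphysis. The rows of these 9 neutrophil granule and calprotectin genes were taken by their symbols, whatever their values, from 20155 named genes of the mouse table and 15163 of the rat table, and all 9 had a row in each. The list itself was chosen with earlier results of these data known.

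The study asked how growth plates change with age and differ between bones. Proliferative zone (PZ) and hypertrophic zone (HZ) were cut by laser from sections of the proximal tibia at 1 week and at 4 weeks of age and, at 1 week, from proximal phalanges of the forelimb, in male C57BL/6 mice and male Sprague Dawley rats, and RNA of single animals was amplified and sequenced. None of the animals carried a mutation or received a treatment. Each of the 6 groups of a species had 5 libraries, apart from the mouse 1-week phalanx PZ, for which 4 were analysed here, so 59 of 60 samples were used. Values are log2 of a normalized count plus 1, where the normalized count is a gene's read count divided by a library size factor. A gene was tested where at least 5 libraries of its species reached a normalized count of 10, which left 15213 mouse and 11760 rat genes. Throughout, a gene was called, and is said to have risen or fallen, where the Benjamini-Hochberg adjusted p of the limma fit over all of these was below 0.05 and the fold above 2.

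The libraries held 19711370 to 41856130 reads in genes in the mouse and 7805695 to 28982210 in the rat. In the mouse, the ribosomal RNA precursor Rn45s took 31.0% to 80.8% of them, so that 5240960 to 27649840 reads remained for other genes. A count of 3 reads corresponded to 1.499 to 8.00 normalized counts in the mouse and to 1.71 to 6.70 in the rat. Cartilage markers were present in every library, where 8 chondrocyte genes summed to 116600 normalized counts or more. They were lowest in the mouse 1-week phalanx HZ, whose median of 264300 lay below that of its 6 osteoblast markers (288900). The 4 hypertrophic markers, of which 3 are in the rat table, were higher in every HZ library than in any PZ library of the same bone, age and species. In 5 mouse libraries the summed count of the 9 genes stood apart from the rest of their group. It was 12800 and 5816 in replicates 1 and 5 of the 1-week tibia HZ, against 545.6 to 1093 in the other 3, and 292.3 in replicate 2 of the 1-week tibia PZ, against 1248 to 2870. In the 1-week phalanx it was 169.3 in PZ replicate 1, against 829.9 to 2236, and 3534 in HZ replicate 2, against 302.7 to 1060. Erythroid markers were also the furthest out in 4 of these libraries, at 12760 and 5034 against 1022 to 1845, at 353.6 against 1189 to 1809 and at 7614 against 1079 to 2849, but not in phalanx PZ replicate 1, at 1051 against 977.6 to 4815. Rat groups held such libraries too. Replicate 1 of the rat 4-week tibia PZ summed to 5346, against 793.4 to 1563, with erythroid markers at 28790 against 6388 to 12890. Replicate 3 of the rat 4-week tibia HZ summed to 4183, against 622.7 to 2124, with erythroid markers at 20950 against 9364 to 15140.

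In the mouse the highest mean level of all 9 genes was in the 4-week tibia HZ. On the log2 scale S100a9 averaged 11.68 ± 0.54 there (SD, n = 5), Ngp (neutrophilic granule protein) 11.31 ± 0.78, Mpo (myeloperoxidase) 11.19 ± 1.07 and S100a8 10.92 ± 0.56. For each of the 9 the step down to the group with the next highest mean, 1.48 to 2.50, was larger than the SD of both groups, and that group was the 4-week tibia PZ for all but Mmp8 (neutrophil collagenase), for which it was the 1-week tibia HZ. Below this the groups mostly ran into each other: of the remaining steps between neighbours, only that of Camp (cathelicidin) from the 4-week to the 1-week tibia PZ was larger than the SDs. Mmp8 and S100a9 were higher in every 4-week tibia HZ library than in any of the other 24, whereas the other genes had between 1 and 10 outside libraries inside or above that range. Divided by exon length, and again in the 4-week tibia HZ, the normalized counts per kb were 6617 ± 2448 for S100a9, 2969 ± 1130 for S100a8, 2327 ± 1258 for Ngp, 859.7 ± 691.9 for Mpo, 505.2 ± 144.8 for Camp, 444.9 ± 266.7 for Elane (neutrophil elastase), 267.2 ± 128.8 for Mmp8, 233.5 ± 128.9 for Ltf (lactoferrin) and 52.83 ± 45.48 for Prtn3 (proteinase 3).

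**Figure D1:**
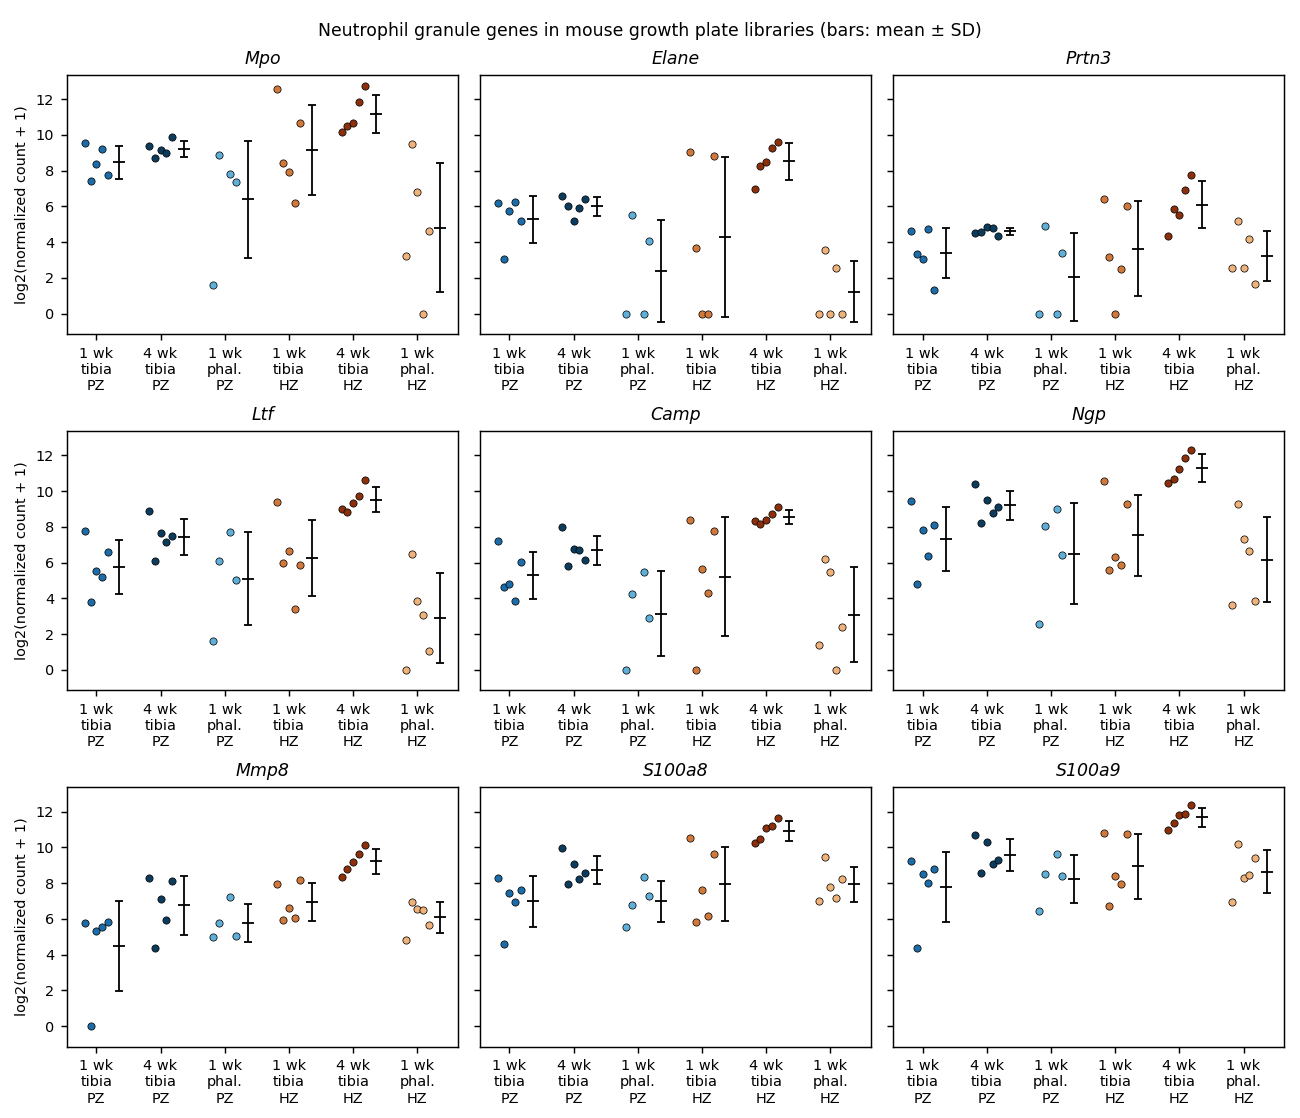
Log2(normalized count + 1) of the 9 genes in each mouse library (points) by group, with the group mean and SD as bars. The 4-week tibia HZ holds the highest mean for each gene, from 6.09 for Prtn3 to 11.68 for S100a9, and for all but Mmp8 and S100a9 1 or 2 of the 1-week tibia HZ libraries lie within its range.

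S100a8 and S100a9 lie near each other in the mouse genome (mm10), at chr3:90668978-90670035 on the forward strand and chr3:90692632-90695721 on the reverse strand. Elane (chr10:79886247-79888215) and Prtn3 (chr10:79874476-79883174) lie beside each other, Ltf, Camp, Ngp and Mmp8 are on chromosome 9 and Mpo on chromosome 11.

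C/EBP factors and PU.1 direct transcription in developing granulocytes, and their short recognition cores can be read in the sequence before the transcription start. For 5 of the genes that the comparisons turn on, the 250 bases before the RefSeq start (GRCm38) are given 5′ to 3′ on the gene's own strand: S100a8 from chr3:90668821-90669070, S100a9 from chr3:90695722-90695971 (reverse strand), Ngp from chr9:110419558-110419807, Elane from chr10:79886062-79886311 and Mpo from chr11:87793534-87793783. Capitals mark the C/EBP half-site GCAAT, searched on both strands, so that it also appears reversed and complemented as ATTGC. They also mark the core motif of PU.1, which is GAGGAA and was likewise searched on both strands, and the promoter element TATAAA on the gene's own strand only. No motif overlaps another in these windows.
S100a8: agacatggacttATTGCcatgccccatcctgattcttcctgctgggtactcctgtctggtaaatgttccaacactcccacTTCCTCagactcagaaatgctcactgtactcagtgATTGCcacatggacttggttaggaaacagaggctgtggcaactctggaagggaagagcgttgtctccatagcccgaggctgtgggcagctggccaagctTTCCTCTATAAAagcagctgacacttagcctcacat
S100a9: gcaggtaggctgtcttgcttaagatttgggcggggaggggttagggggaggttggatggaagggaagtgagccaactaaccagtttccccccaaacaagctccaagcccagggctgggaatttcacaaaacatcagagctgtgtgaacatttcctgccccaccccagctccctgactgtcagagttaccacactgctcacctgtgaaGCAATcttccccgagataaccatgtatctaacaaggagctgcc
Ngp: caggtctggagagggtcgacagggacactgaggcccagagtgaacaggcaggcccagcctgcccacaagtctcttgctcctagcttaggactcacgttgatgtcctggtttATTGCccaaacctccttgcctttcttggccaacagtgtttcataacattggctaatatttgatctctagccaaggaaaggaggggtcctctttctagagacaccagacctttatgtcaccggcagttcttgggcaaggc
Elane: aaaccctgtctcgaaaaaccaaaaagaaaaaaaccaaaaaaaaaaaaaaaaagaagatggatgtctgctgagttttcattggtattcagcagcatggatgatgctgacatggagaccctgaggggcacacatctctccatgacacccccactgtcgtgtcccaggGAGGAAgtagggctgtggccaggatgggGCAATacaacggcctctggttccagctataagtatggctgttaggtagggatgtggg
Mpo: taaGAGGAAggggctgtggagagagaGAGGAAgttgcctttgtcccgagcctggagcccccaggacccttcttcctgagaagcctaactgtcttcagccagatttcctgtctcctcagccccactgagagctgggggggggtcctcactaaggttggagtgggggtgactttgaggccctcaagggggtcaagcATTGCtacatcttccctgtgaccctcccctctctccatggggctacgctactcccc

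The C/EBP half-site was found in 8 of the 9 genes, all but Prtn3, and in 23.1% of 32851 mouse promoter windows of the same length. In Elane it spans bases -57 to -53 from the start, in Mpo -56 to -52 and in S100a9 -43 to -39. The PU.1 core was found in 6 of 9 (not in S100a9, Camp or Ngp) and in 23.3% of all windows, and the TATA motif in S100a8 alone, at -30 to -25, and in 7.59% of all windows. These letters were chosen with the sequences known, and a match is a run of letters, not a measured site.

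With age, 5 of the 9 genes rose in the mouse tibia HZ from 1 to 4 weeks and none was called lower (6.43% of all tested genes were called higher). They were Elane, 18.5-fold (log2 4.21 ± 1.39 SE, adjusted p = 0.0376), Ngp, 13.7-fold (3.78 ± 1.21, 0.0356), Ltf, 9.55-fold (3.26 ± 1.12, 0.0486), S100a8, 7.84-fold (2.97 ± 0.79, 0.0122) and S100a9, 6.73-fold (2.75 ± 0.87, 0.0335). The other 4 had positive estimates that did not pass, from log2 2.03 for Mpo (adjusted p = 0.3602) to 3.33 for Camp (adjusted p = 0.0648). The median over the 9 was 2.97, and over all tested genes 0.17.

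The library values show how unlike the young HZ libraries were. Replicates 1 to 5 of the 1-week tibia HZ held 1475, 55.1, 198, 70.9 and 788 normalized counts of S100a8, and those of the 4-week tibia HZ 1204, 1418, 2165, 2352 and 3164. Counts of Ngp were 1520, 47.2, 78.1, 56.7 and 630 at 1 week and 1408, 1621, 2424, 3687 and 5082 at 4 weeks. In both genes 4 of the 5 young libraries lay below every older one, and replicate 1 lay within their range. Elane, a serine protease of the azurophil granule, was measured at 523, 11.8, 0, 0 and 452 at 1 week and at 123, 310, 352, 622 and 782 at 4 weeks, so that 2 young libraries overlapped the older group. Mpo, the peroxidase of the same granule, gave 6141, 347, 239, 70.9 and 1612 against 1164, 1441, 1612, 3734 and 6768, also with 2 young libraries inside the older range. The young libraries were shallower, with 5240960 to 10397185 reads outside Rn45s against 13530889 to 18144287. A count of 3 reads was 3.90 to 8.00 normalized counts in them and 1.79 to 2.55 at 4 weeks. The part of depth in the low values was not tested.

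In these sections, as in any bulk sample, fewer cells of a type and less RNA per cell cannot be told apart. The count of 5 was sensitive to single libraries. Without replicate 1 or 5 of the 1-week tibia HZ it was 7, without replicate 2, 3 or 4 of that group or replicate 3, 4 or 5 of the 4-week tibia HZ it was 1 (S100a8), and without replicate 2 of the latter it was 3. Without replicate 1 of the 4-week tibia HZ it was 4, and without a library of another group it was 4 to 6. Ltf kept its call in only 9 of the 29 fits that left out 1 library. The count was 2 in a fit of the 10 tibia HZ libraries alone and 0 with array quality weights.

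In the mouse tibia PZ the same 9 genes all had positive estimates with age, from log2 0.74 for Elane to 2.28 for Mmp8, with a median of 1.68 against 0.06 over all genes, but none was called (4.33% of all genes were, in either direction). Of the 9, 3 had an unadjusted p below 0.05 in limma (Mmp8, S100a8 and S100a9), and limma-voom on the recovered reads called 0. Mmp8, which cuts fibrillar collagens, was measured at 54.0, 0, 38.4, 45.4 and 55.3 normalized counts in replicates 1 to 5 at 1 week and at 317, 19.5, 138, 60.5 and 277 at 4 weeks (log2 difference 2.28 ± 0.86, adjusted p = 0.102). Without replicate 2 of the 4-week tibia PZ, the library at 19.5, 1 gene was called. The age difference in HZ was not shown to exceed that in PZ: none of the 9 differences between the zones was called (2.06% of all genes were), none had an unadjusted p below 0.05, limma-voom called 0, and the estimates ran from log2 -0.01 for Mmp8 to 3.47 for Elane.

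Between bones at 1 week, 2 of the 9 genes were lower in mouse phalanx HZ than in tibia HZ (5.1% of all genes were called lower). Mpo was 20.1-fold lower (log2 -4.33 ± 1.42, adjusted p = 0.0351), and its 5 phalanx libraries held 8.16, 726, 111, 0 and 23.3 normalized counts. Ltf, which binds iron, was 10.4-fold lower (-3.38 ± 1.12, adjusted p = 0.0352), at 0, 87.4, 13.2, 7.27 and 1.06 in the phalanx and 661, 63.0, 98.8, 9.45 and 57.3 in the tibia. For both the groups overlapped, and in Mpo replicate 2 of the phalanx exceeded 3 of the tibia libraries. S100a8 and S100a9 had estimates near 0, with 95% intervals of -1.64 to 1.62 and of -2.08 to 1.52. Without replicate 1 of the tibia HZ, or replicate 1, 4 or 5 of the phalanx HZ, 0 genes were called, without tibia HZ replicate 5 it was 1 (Ltf), and in a fit of these 10 libraries alone, with array quality weights or by limma-voom it was 0. Chondrocyte markers had a median of 264300 in the phalanx HZ and 1224000 in the tibia HZ, osteoblast markers 288900 and 74670, and osteoclast markers 88160 and 22270, and their part in the difference was not tested. This comparison and the age comparison share the 1-week tibia HZ libraries.

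In the PZ, none of the 9 genes was called between phalanx and tibia (3.31% of all genes were, in either direction), none had an unadjusted p below 0.05, and limma-voom also called 0. The estimates ran from log2 -2.88 for Elane to 1.27 for Mmp8. Nor did the bone difference differ between the zones for any of the 9 (7.68% of all genes), with 0 at an unadjusted p below 0.05 and 0 by limma-voom.

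Between the zones of the mouse tibia, Mmp8 was higher in HZ than in PZ at both ages, 5.46-fold at 1 week (log2 2.45 ± 0.86, adjusted p = 0.0220) and 5.42-fold at 4 weeks (2.44 ± 0.86, 0.0281). It was the only one of the 9 called at 1 week, when 14.7% of all genes were called higher in HZ, a share that 1 of 9 does not exceed. Its 1-week HZ libraries held 245, 59.1, 96.5, 63.8 and 293 normalized counts, all above the highest PZ library (55.3). The call was lost without replicate 2 of the 1-week tibia PZ, the library at 0, without replicate 1 or 5 of the HZ, in a fit of these 10 libraries with no replicate block, with array quality weights and by limma-voom.

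At 4 weeks S100a8 was also higher in HZ, 4.49-fold (log2 2.17 ± 0.79, adjusted p = 0.0351), which made 2 of 9 (13.7% of all genes were called higher). All 9 estimates were positive, between 1.48 and 2.50, and their median of 2.08 compares with -0.03 over all genes. The PZ libraries held 998, 247, 535, 303 and 372 counts of S100a8, below every HZ library. In a fit of these 10 libraries alone 9 of 9 were called, by limma-voom 8, and with array quality weights 4. The share of all genes called was not taken for these other fits. Without replicate 2 or 4 of the 4-week tibia PZ or replicate 4 or 5 of the HZ 0 were called, and without PZ replicate 5 or HZ replicate 3 it was 1 (Mmp8). In the phalanx none of the 9 was called between the zones (24.4% of all genes were, in either direction), none had an unadjusted p below 0.05 and limma-voom called 0. There Mpo had an estimate of -1.58 and S100a8 one of 0.95. Without phalanx PZ replicate 1 or HZ replicate 2, 1 gene was called.

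In the rat, 3 of the 9 genes were at 0 in 15 or more of the 30 libraries and could not be tested. Ltf was at 0 in 25 of 30 libraries, with at most 8 reads in any, Prtn3 was at 0 in 22, with at most 12 reads, and Elane was at 0 in 15, with at most 54 reads (33.2 normalized counts, in 4-week tibia PZ replicate 1). Ltf, which reached 1552 normalized counts in the mouse, had 20 reads in all rat libraries together, and the reason was not tested. The 6 others passed the filter. Their lowest mean was in each case that of the 1-week tibia PZ, and for Camp, Ngp, Mmp8, S100a8 and S100a9 the step up to the next group, 2.10 to 4.29 on the log2 scale, was larger than both SDs. None of the other steps between neighbouring groups was. For Mmp8, S100a8 and S100a9 every 1-week tibia PZ library lay below every one of the other 25.

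**Figure D2:**
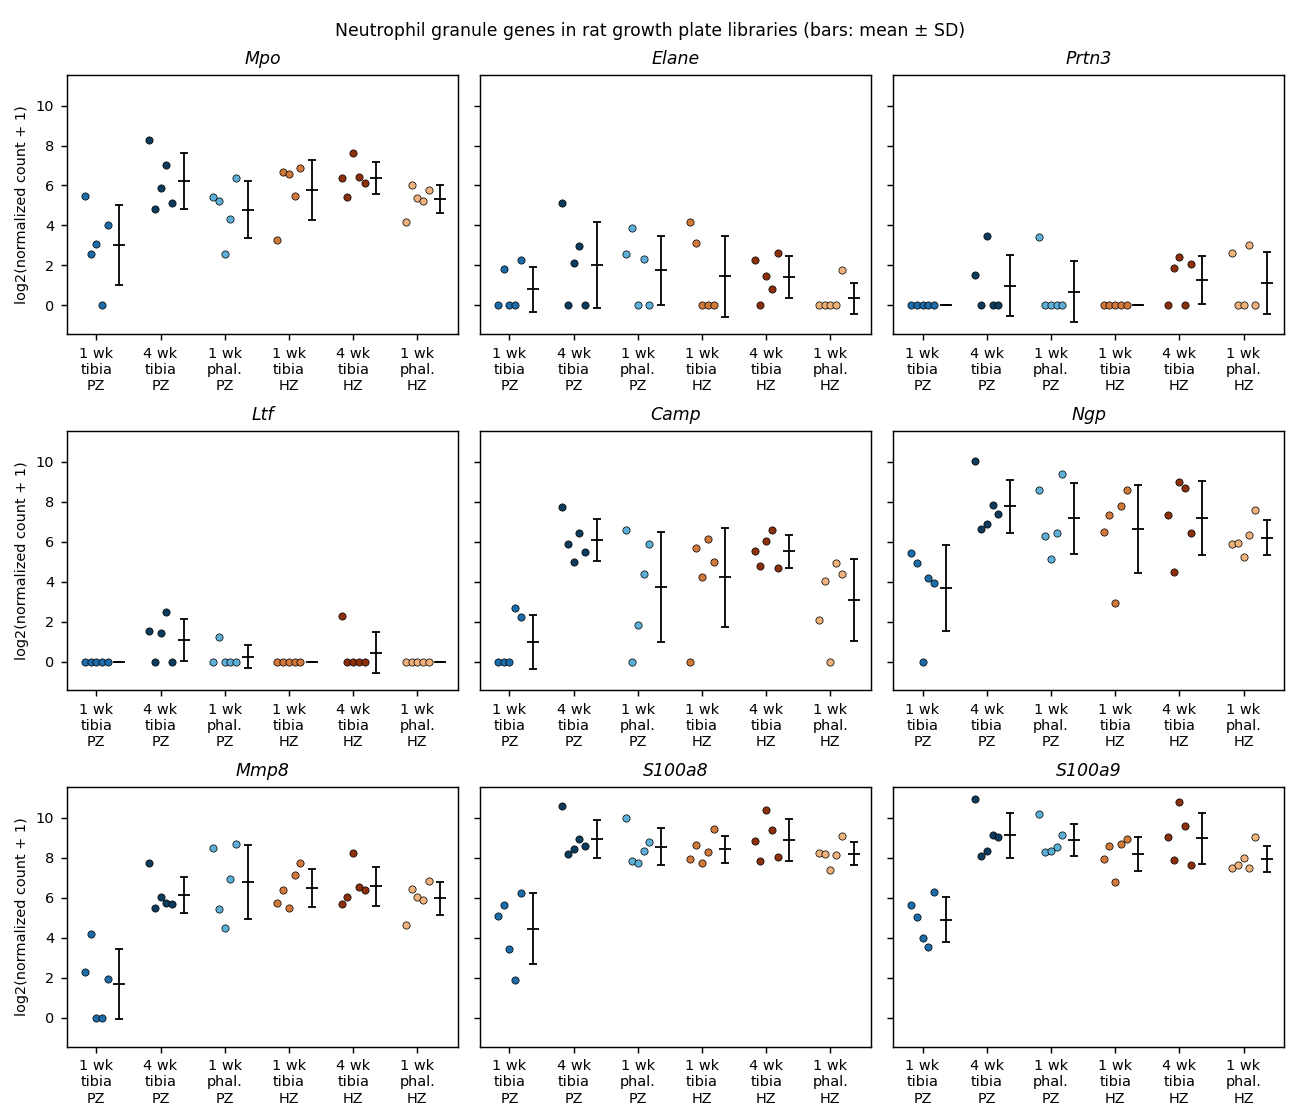
Log2(normalized count + 1) of the 9 genes in each rat library (points) by group, with the group mean and SD as bars. In the 6 genes that were tested the 1-week tibia PZ has the lowest mean, 1.69 for Mmp8 and 4.46 for S100a8 against at least 5.97 and 8.22 in the other groups, while Elane, Prtn3 and Ltf are at 0 in 15, 22 and 25 of the 30 libraries.

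In the rat tibia PZ all 6 tested genes rose from 1 to 4 weeks (5.77% of all genes were called higher). Camp, the precursor of the antimicrobial peptide cathelicidin, rose 34.6-fold (log2 5.11 ± 1.10, adjusted p = 0.00115), S100a8 22.4-fold (4.49 ± 0.65, 1.62e-05), Mmp8 21.9-fold (4.45 ± 0.75, 5.45e-05) and S100a9 18.7-fold (4.22 ± 0.60, 1.31e-05). Ngp rose 16.8-fold (4.07 ± 1.07, 0.00894) and Mpo 9.2-fold (3.20 ± 0.81, 0.00497). The median was 4.34, against 0.04 over all genes.

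The 5 libraries of the 1-week tibia PZ held 32.7, 49.4, 9.98, 2.66 and 75.0 normalized counts of S100a8, and those of the 4-week tibia PZ 1534, 292, 343, 491 and 385. S100a9, its partner, was measured at 49.5, 32.1, 15.0, 10.7 and 76.0 and at 1997, 273, 325, 565 and 537. For Camp the young libraries gave 0, 0, 0, 5.33 and 3.75, that is at most 4 reads, and the older ones 212, 57.8, 30.6, 84.0 and 43.0. The ages did not overlap in any of these genes, and replicate 1 of the 4-week tibia PZ was the highest library in each. Mpo overlapped, at 42.6, 4.94, 7.49, 0 and 15.0 against 308, 27.2, 57.1, 129 and 34.4. The young libraries were also shallower, with 11700814 to 15754343 reads in genes against 22114689 to 28982210. The call held for each of the 6 genes when any single library was left out. Limma-voom called 5, without Ngp (adjusted p = 0.101). The folds of genes with young libraries at or near 0 depend on the pseudocount. With a pseudocount of 4 in place of 1 the log2 estimate was 3.73 for Camp and 3.37 for Mmp8, and by limma-voom it was 5.71 and 4.78.

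In the rat HZ none of the 6 was called with age (7.23% of all genes were, in either direction), none had an unadjusted p below 0.05, and limma-voom called 0. The estimates were log2 0.07 for Mmp8, with a 95% interval of -1.45 to 1.59, 0.48 for S100a8 (-0.85 to 1.81) and 0.80 for S100a9 (-0.44 to 2.04). The age difference was smaller in HZ than in PZ for these 3 genes, by log2 -4.39 ± 1.06 for Mmp8 (adjusted p = 0.0113), -4.01 ± 0.92 for S100a8 (0.00957) and -3.42 ± 0.85 for S100a9 (0.0175), which is 3 of 6 against 2.49% of all genes. By limma-voom this difference was called for 0 of them (adjusted p = 0.0729, 0.117 and 0.239).

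The rat 1-week phalanx PZ also stood above the 1-week tibia PZ. Of the 6 genes, 4 were higher (5.35% of all genes were called higher), with Mmp8 34.8-fold (log2 5.12 ± 0.75, adjusted p = 1.15e-05), S100a8 17.1-fold (4.09 ± 0.65, 8.61e-05), S100a9 16.1-fold (4.01 ± 0.60, 4.50e-05) and Ngp 11.1-fold (3.47 ± 1.07, 0.0366). Mmp8 was at 361, 42.6, 21.4, 121 and 411 normalized counts in the phalanx and at 3.96, 17.3, 0, 0 and 2.81 in the tibia, with no overlap. Camp (2.75 ± 1.10, adjusted p = 0.114) and Mpo (1.76 ± 0.81, 0.180) were not called. Ngp lost its call without replicate 3, 4 or 5 of the tibia PZ or replicate 1 or 5 of the phalanx PZ, and limma-voom called 1 gene, Mmp8.

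In the HZ none of the 6 genes was called between the bones (22.1% of all genes were, in either direction). None had an unadjusted p below 0.05, and limma-voom called 0. The estimates lay between log2 -1.13 ± 1.10 for Camp and -0.21 ± 0.65 for S100a8, so a difference was not excluded. The bone difference was lower in HZ than in PZ for Mmp8 (-5.66 ± 1.06, adjusted p = 0.000355), S100a8 (-4.31 ± 0.92, 0.00193) and S100a9 (-4.26 ± 0.85, 0.00110), against 6.29% of all genes. Limma-voom called 2 of these, without S100a9 (adjusted p = 0.0637).

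Within the rat 1-week tibia all 6 genes were higher in HZ than in PZ (16.3% of all genes were called higher). Mmp8 was 28.4-fold higher (log2 4.83 ± 0.75, adjusted p = 3.34e-06), S100a8 15.6-fold (3.97 ± 0.65, 1.82e-05) and S100a9 9.79-fold (3.29 ± 0.60, 7.99e-05), and Camp, Ngp and Mpo were 9.36-, 7.71- and 6.69-fold higher. The HZ libraries held 51.7, 84.1, 44.7, 142 and 216 counts of Mmp8 and 250, 399, 215, 319 and 701 of S100a8, all above every PZ library. Ngp lost its call without PZ replicate 3 or HZ replicate 2, 4 or 5 and Camp without HZ replicate 4, and limma-voom called 2 genes, Mmp8 and S100a8. At 4 weeks no gene was called between the zones (13.7% of all genes were, in either direction), and none in the phalanx (25.3%). In both, 0 of 6 had an unadjusted p below 0.05 and limma-voom called 0. The age, bone and zone comparisons in which the rat genes were called all use the same 5 libraries of the 1-week tibia PZ, and so are not separate evidence.

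**Figure D3:**
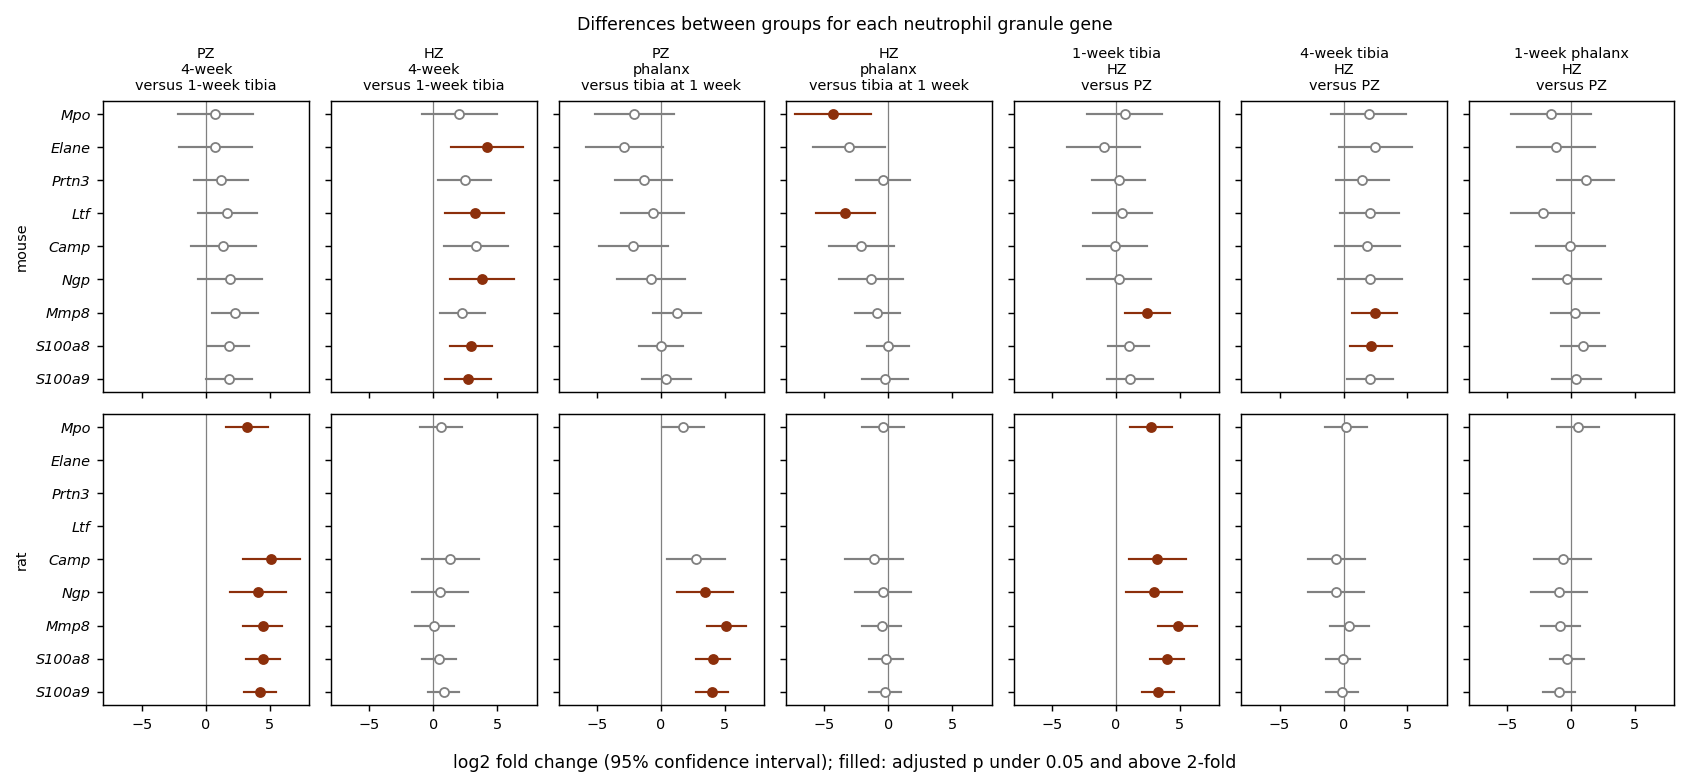
Log2 fold change (points) and 95% confidence interval (lines) of each gene in 7 comparisons, mouse above and rat below, with called genes filled. In the mouse 5 of 9 are filled in the HZ age comparison, 2 in the HZ bone comparison and 1 and 2 between the zones of the tibia, and rat calls fall in the 3 comparisons that use the 1-week tibia PZ, where 6, 4 and 6 of 6 are filled.

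The rat 1-week tibia PZ also had the lowest median of the 6 groups for all 9 marker lists of cells outside cartilage, vessel and bone cells included. Its median was 331.6 for endothelial markers, against 892.3 or more, 173.1 for osteoclast markers, against 791.1 or more, and 25020 for osteoblast markers, against 44260 or more. Summed over the 9 listed erythroid genes in the table, its libraries had 826.9 to 1211 normalized counts, against 3936 or more in each of the other 25. Over 10 B lymphocyte markers they had 18.72 to 102.5, against 104.3 or more. Over 10 macrophage and monocyte markers they had 203.5 to 451.8, which overlapped the 360.9 to 1275 of the 4-week tibia PZ. In the mouse, the 12 B lymphocyte markers summed to 1855 to 4969 in the 4-week tibia HZ and to 264.5 to 1475 in the 1-week tibia HZ, with no overlap, while macrophage markers were at 3242 to 8011 and 3251 to 4856. Mouse macrophage markers were highest in the phalanx HZ, at 5893 to 13860, where the 9 genes summed to only 302.7 to 3534. The part that blood, vessel and bone cells in the sections had in these differences was not tested.

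**Figure D4:**
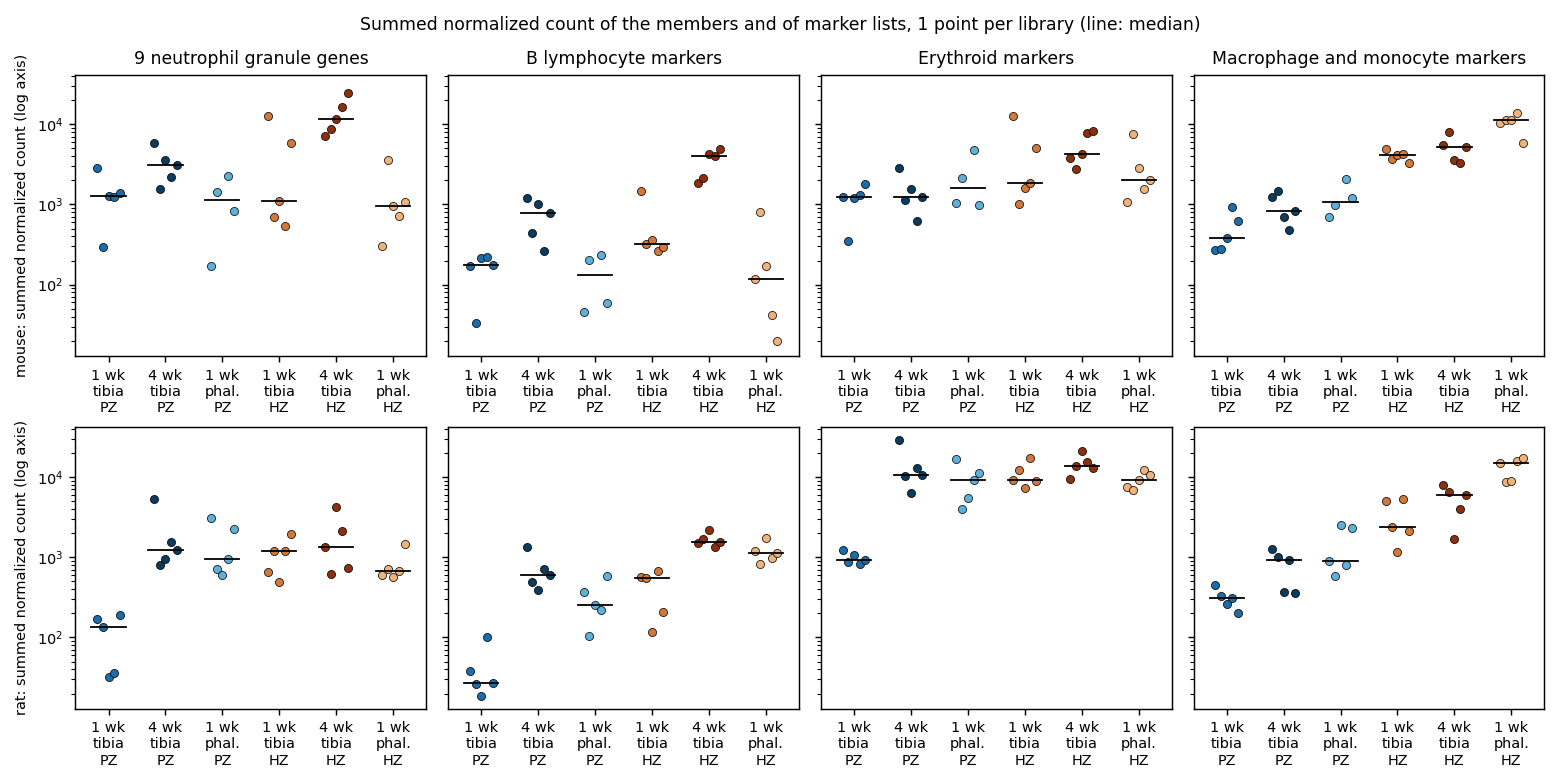
Summed normalized count (log axis) of the 9 genes and of marker lists for 3 other cell types in each library (points) with the group median (line). In the rat the 1-week tibia PZ is lowest in all 4 panels by median, 135.9 for the 9 genes against at least 669.4 elsewhere, and in the mouse the macrophage markers have their highest median, 11250, in the phalanx HZ, where the 9 genes have 955.2.

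The balance between the 3 classes of gene varied among the mouse libraries. The shares are of counts not divided by length, so they compare libraries rather than genes. The azurophil genes Mpo, Elane and Prtn3 made up 17.1% to 31.6% of the summed count in the 4-week tibia HZ and 13.2% to 33.7% in the 4-week tibia PZ. In the 1-week phalanx HZ they made up 2.395% to 21.8%, with a median of 4.31%, and S100a8 with S100a9 made up 52.5% to 91.2%. In the 1-week tibia HZ the azurophil share was 13.9% to 52.8%. The phalanx and 4-week tibia HZ overlapped through 1 phalanx library, replicate 2, which also had the highest summed count of its group (3534). In the rat the S100 genes made up 45.6% to 89.6% outside the 1-week tibia PZ, whose shares, 37.0% to 79.3%, rest on summed counts of 190.4 or less. The ratio of S100a9 to S100a8 counts was 0.846 to 3.53 over all mouse libraries, with a median of 1.83, and 0.510 to 4.0 over all rat libraries, with a median of 1.13.

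**Figure D5:**
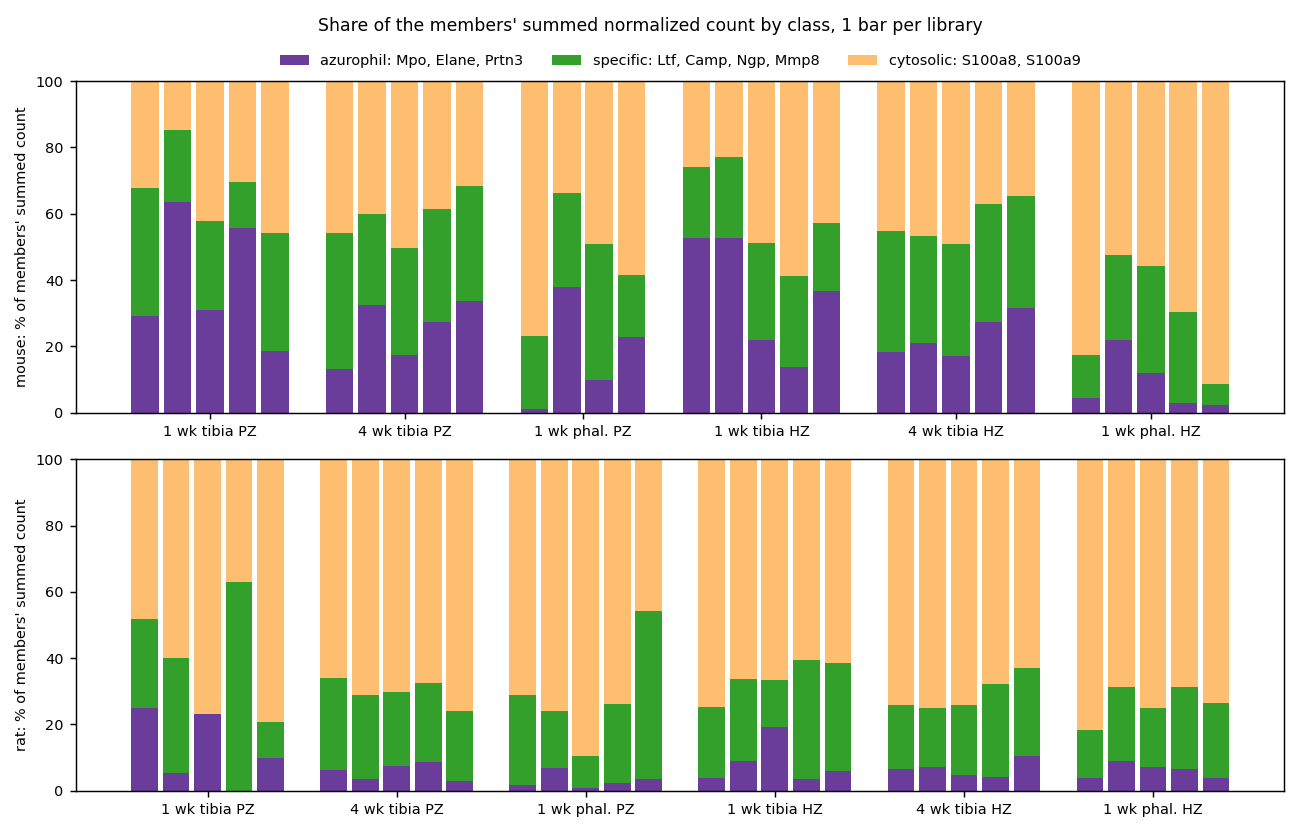
Share (%) of the 9 genes' summed normalized count in azurophil, specific and cytosolic genes, 1 bar per library. In the mouse the azurophil share has a median of 4.31% in the phalanx HZ and of 20.9% in the 4-week tibia HZ.

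Over all libraries of a species the genes moved together. Pearson's r between pairs of log2 values ran from 0.490 (Mmp8 and Prtn3) to 0.971 (S100a8 and S100a9) across 29 mouse libraries and from 0.617 (Mpo and Ngp) to 0.959 (again S100a8 and S100a9) across 30 rat libraries. The libraries share groups, and in each the genes share depth, so these values are a description.

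A list of 36 other granulocyte genes gave a wider view, of which 33 were tested in the mouse and 26 in the rat. Its summed count did not follow that of the 9 genes across the groups. By median it was highest in the phalanx HZ, at 92380 in the mouse and 114300 in the rat. There the 9 genes had 955.2 and 669.4. In the mouse tibia HZ with age, 9 of 33 rose and 0 fell, against 6.43% of all genes called higher. Among them Cd177, a neutrophil surface protein, was at log2 7.16 ± 1.14 (adjusted p = 4.445e-05) and Serpinb1a, an inhibitor of the azurophil proteases, at 4.93 ± 0.98 (0.000619). Ms4a3, a marker of granulocyte and monocyte progenitors, was at 4.13 ± 1.00 (0.00426). In the mouse PZ 7 of 33 rose, where 4.33% of all genes were called in either direction. The 7 were led by Mmp25 (4.27 ± 0.81, adjusted p = 0.000524), a membrane-bound protease of neutrophils, although none of the 9 granule genes was called there. In the rat PZ 11 of 26 rose and 1 fell (5.77% of all genes were called higher). Ncf1, a subunit of the phagocyte NADPH oxidase, rose by 4.16 ± 0.47 (adjusted p = 8.83e-08) and Itgb2, the beta chain of the leukocyte integrins, by 3.76 ± 0.61 (3.48e-05). The gene that fell was Hp, haptoglobin, at -2.30 ± 0.38 (3.76e-05). In the rat HZ 0 of 26 rose and 2 fell, which is near the 7.23% of all genes called there in either direction. Itgb2, Ncf1 and Ncf4 rose in the PZ in both species.

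Between the zones, some of these genes were higher in HZ at each bone and age. Their count was 14 of 33 in the mouse at 1 week and 14 at 4 weeks, and 12 in the phalanx, with 0 lower in each. In the rat it was 17, 9 and 9 of 26 higher, and 1, 0 and 1 lower. Zone calls were common among all genes, at 14.7% and 13.7% higher in the mouse tibia, 16.3% higher in the rat 1-week tibia, and in either direction 13.7% in the rat 4-week tibia and 24.4% and 25.3% in the mouse and rat phalanx. Genes called in the same direction in both species in the 1-week tibia included Mmp9, Itgam, Itgb2, Csf3r, Cybb, Ncf1, Ncf4, Rac2, Gfi1 and Spi1. Several of these, such as Mmp9 and the PU.1 gene Spi1, are also made by macrophages or osteoclasts. Mouse osteoclast markers summed to 13160 to 112300 in HZ libraries and to 218.3 to 9817 in PZ libraries. At 4 weeks 8 were called in both species in the same direction, namely Mmp9, Itgam, Itgb2, Cyba, Ncf1, Ncf4, Rac2 and Spi1, and in the phalanx 7, namely Mmp9, Itgam, Itgb2, Ncf4, Rac2, Gfi1 and Spi1. Between the bones Itgb2 was called higher in phalanx PZ in both. Hp was called in both species in opposite directions between the bones in HZ, at 2.95 ± 0.78 in the mouse (adjusted p = 0.00744) and -1.87 ± 0.38 in the rat (0.000226), and between the zones of the phalanx, at 3.15 ± 0.82 in the mouse (adjusted p = 0.00332) and -2.42 ± 0.38 in the rat (5.00e-06).

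The genes whose log2 values followed the mean of the tested granule genes most closely were compared between the species. In the mouse the first 10, with r from 0.928 to 0.868 over 29 libraries, were Traf3ip3, Fcnb, Myb, Pou2af1, Lcn2, Fcrla, Lrmp, Ly6c2, Spib and Atp2a3. Fcnb (ficolin B) and Lcn2 (lipocalin 2) are themselves granulocyte genes, and Pou2af1, Fcrla and Spib are genes of B lymphocytes. In the rat the first 10 included Slc4a1, Hemgn, Ahsp, Slc14a1, Kel, Hba1, Ctse and Sptb, with r from 0.892 to 0.853 over 30 libraries, of which Slc4a1, Hemgn, Ahsp, Kel, Hba1 and Sptb are genes of red cells and their precursors. Fcnb, Ctse and Ikzf1 were among the first 50 in both. These correlations are a description, since libraries of a group are alike in other ways.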

How the data were processed

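The deposited values, 1 table per species, are log2 of a count plus 1. Per the labels and the study's methods, the authors used STAR 2.4.2 on mm10 (mouse) and rn6 (rat) for 50-base read pairs, featureCounts 1.4.6 for counting and DESeq2 (relative log expression) to normalize. The annotation release and strand setting are not given in the sources used here. Undoing the log gave whole reads within 0.05 for 100% of values up to 200 reads. Rows named by dates or without a name were dropped (26 and 27), as were 216 second entries of rat symbols, keeping the higher mean. Groups of a species were fitted together with limma 3.58.1 (R 4.3.3; eBayes with trend and robust), pseudocount 1, and two-sided p adjusted over all tested genes. Replicates are single animals. The fit was tested on simulated data. Members and lists were chosen with earlier results of these data known. All 9 members are named. Of the other granulocyte genes, those called in the same comparison in both species and the 4 with the smallest adjusted p with age per species are named, and by likeness the first 10 per species and those shared among the first 50. Some genes that this rule names are not reported here. Positions are from GENCODE M21. Alternatives were pseudocount 4, other filters, quantile normalization, fewer groups with and without a replicate block, array weights, limma-voom on recovered reads and each library left out.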

Additional observations from a re-analysis of the deposited data

Results flagged for a closer look

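The extremes of 90 sets of 4 or 5 log2 values, 1 for each tested gene and group, were compared with the rest of their set by Dixon's ratio. It flags about 1 in 20 by chance, and 4 were flagged, which is no more than that rate. In the mouse 1-week tibia PZ, replicate 2 was far below the others for Mmp8 (0 against a highest value of 5.82) and for S100a9 (4.38 against 9.26). In the rat 1-week tibia PZ, Ngp was at 0 in replicate 3, against a median of 4.19. In the rat 4-week tibia PZ, Mmp8 was at 7.74 in replicate 1, against a median of 5.76.

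In the rat the difference between the zones in an age or bone effect passed the test of the difference itself for 3 genes. For the age effect, HZ minus PZ was log2 -4.39 for Mmp8, -4.01 for S100a8 and -3.42 for S100a9. For the bone effect it was -5.66 for Mmp8, -4.31 for S100a8 and -4.26 for S100a9. All 6 estimates use the 1-week tibia PZ libraries.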

How the results depend on the processing

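Counts are of the 9 genes called, in the order age in PZ, age in HZ, bone in HZ, zone at 1 week and zone at 4 weeks for the mouse tibia, with 0, 5, 2, 1 and 2 as reported. Array quality weights gave 1, 0, 0, 0 and 4. Limma-voom gave 0, 6, 0, 0 and 8. A fit of only the groups compared, with no replicate block, gave 2, 0, 0 and 9 for the last 4, and with the replicate block 5, 3, 0, 2 and 9. Replicate numbers are shared between groups, but in no comparison did every same-numbered pair of deviations correlate above 0.1, so the numbers were not taken as pairs. Between the zones, an HZ library's closest PZ library had its own number in 4 of 5 cases (mouse 1-week tibia), 3 of 5 (4-week tibia) and 3 of 4 (phalanx). For the rat it was 3 of 5 in each of these comparisons. Across the age and bone comparisons of both species it was 0 to 3. With unrelated numbers such a match would be found in about 1 of 5 cases. Whether PZ and HZ of the same number share an animal was not tested, and shared animals were not excluded. The zone tests treat the libraries of both zones as independent. In the rat, limma-voom gave 1 in place of 4 for bone in PZ, 2 in place of 6 for zone at 1 week and 0 in place of 3 for the difference between zones of the age effect; with the replicate block that difference gave 2, and the one of the bone effect 4 in place of 3. Leaving out 1 library gave 0 to 1, 1 to 7, 0 to 3, 0 to 1 and 0 to 3 for the 5 mouse counts and 0 to 1 for zones of the phalanx. In the rat it gave 6 to 6 for age in PZ, 3 to 5 for bone in PZ, 4 to 6 for zone at 1 week and 3 to 4 for both differences between zones. Pseudocount 4, quantile normalization and the other filters kept every count within 1.5 times. Fold sizes of low rat genes moved more, as given for Camp and Mmp8. No estimate of a called gene changed sign under any of these. The cause of these shifts was not tested, and the share of all genes called was not taken for the alternative fits. Low read numbers limit Prtn3 and Elane in the mouse and Ltf, Prtn3 and Elane in the rat, and group sizes of 4 or 5 leave wide intervals.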
